A study of Mus musculus with 14 samples.

Results

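The receptors and carriers through which vitamin A acts were followed in the RNA of mouse fetuses whose mothers had been given ethanol late in pregnancy. The genes are Stra6, Crabp1, Crabp2, the retinoic acid receptors Rara, Rarb and Rarg, and the retinoid X receptors Rxra, Rxrb and Rxrg. They were taken by symbol: every probe of the deposited table whose single gene symbol in the platform annotation was 1 of these 9 was used. That gave 19 of 21582 probes, 6 for Rara, 5 for Rarg, 2 for Rarb and 1 for each other gene, and each is reported separately under the accession of the sequence it was made from. All samples came from timed pregnant C57Bl6 mice that had free food and water up to gestational day 14. In the alcohol-fed group (n = 7) the mothers were exposed to ethanol at about 180 to 200 mg/dl from gestational day 15 to 18, which the protocol counts as 4 days and the titles as 5. The other 7 samples, the pair-fed group, came from mothers given maltose dextrin over the same days (maltose dextrose in the design text). Delivery was by caesarean section on gestational day 19. Which tissue of the fetus was taken is unknown here. Each of 14 arrays carried 1 sample in Cy5 beside a common pool in Cy3, made from 7 animals on free food and water. The design text calls that pool a universal control, and the channel label calls it weight matched. The labels do not tie the samples to litters, so the p-values rest on a spread between arrays that may be technical.

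Retinol, or vitamin A, enters many cells through STRA6, the membrane receptor for the plasma retinol carrier RBP4. Inside the cell it is oxidised to retinaldehyde and then to retinoic acid, and the small binding proteins CRABP1 and CRABP2 hold retinoic acid in the cytosol, with CRABP2 delivering it to the nucleus. There a retinoic acid receptor (RAR) paired with a retinoid X receptor (RXR) sits on DNA and switches from holding corepressors to holding coactivators when retinoic acid binds. The signal patterns the hindbrain, limbs, heart, eye and lung of the embryo. Alcohol dehydrogenases can oxidise both ethanol and retinol, which is why retinoid genes are often looked at after ethanol exposure in pregnancy.

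Rarb is both a receptor of this pathway and a classical gene that the pathway switches on, so the start of the gene is shown here beside the Rarb values given below. The window runs from 250 bases before to 50 bases after the start in RefSeq, build GRCm38.p6, chr14:16575427-16575726, minus strand, written 5′ to 3′ along the gene. Capitals mark a direct repeat with a spacing of 5 bases (DR5), the arrangement bound by RAR and RXR pairs.
Rarb: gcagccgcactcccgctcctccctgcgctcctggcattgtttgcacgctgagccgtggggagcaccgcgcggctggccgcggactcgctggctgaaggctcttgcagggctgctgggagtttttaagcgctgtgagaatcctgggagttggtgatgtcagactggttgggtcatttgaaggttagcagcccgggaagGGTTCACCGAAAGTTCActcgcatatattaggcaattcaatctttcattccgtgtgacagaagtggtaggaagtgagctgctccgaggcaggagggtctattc
The repeat begins 53 and ends 37 bases before the start. The search took any pair of 4 half-sites on both strands. The first half-site was AGGTCA. The second was AGTTCA. The third was GGGTCA. The last was GGTTCA. A DR5 stood in 32 of 32851 promoter windows of this length in the table (0.0974%). Among the 18 windows of 8 of the 9 genes (all but Crabp2) 1 held it, the Rarb window printed above. None of the 18 held a pair spaced by 1 base (DR1, in 0.222% of all windows) or by 2 bases (DR2, in 0.268%). A match describes these letters only.

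The values are log2 ratios of a sample to the pool, after the median of each array was set to 0. Positive values are taken as sample over pool. The labels list the sample as the first channel, which makes this direction likely, but they do not state it. The log base was read from the values. If the ratio runs the other way, every "above" and "below" in the text exchanges. Ratios of exactly 0 or at the ceiling of the table were treated as placeholders for a missing measurement. They made up 25 of the 266 values of the 19 probes (9.40%) and 5.29% of the whole table. Of the 19 probes, 13 to 19 had a value on a given array, fewest on pair-fed array 6. Testing required 4 or more measured arrays in each of the groups, which 18 probes met and Rxra did not. No signal intensities were used, so how bright a probe was, and whether it lay above background, is unknown here. In RNA of whole tissue, fewer cells of a type and less RNA per cell cannot be told apart.

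**Figure D1:**
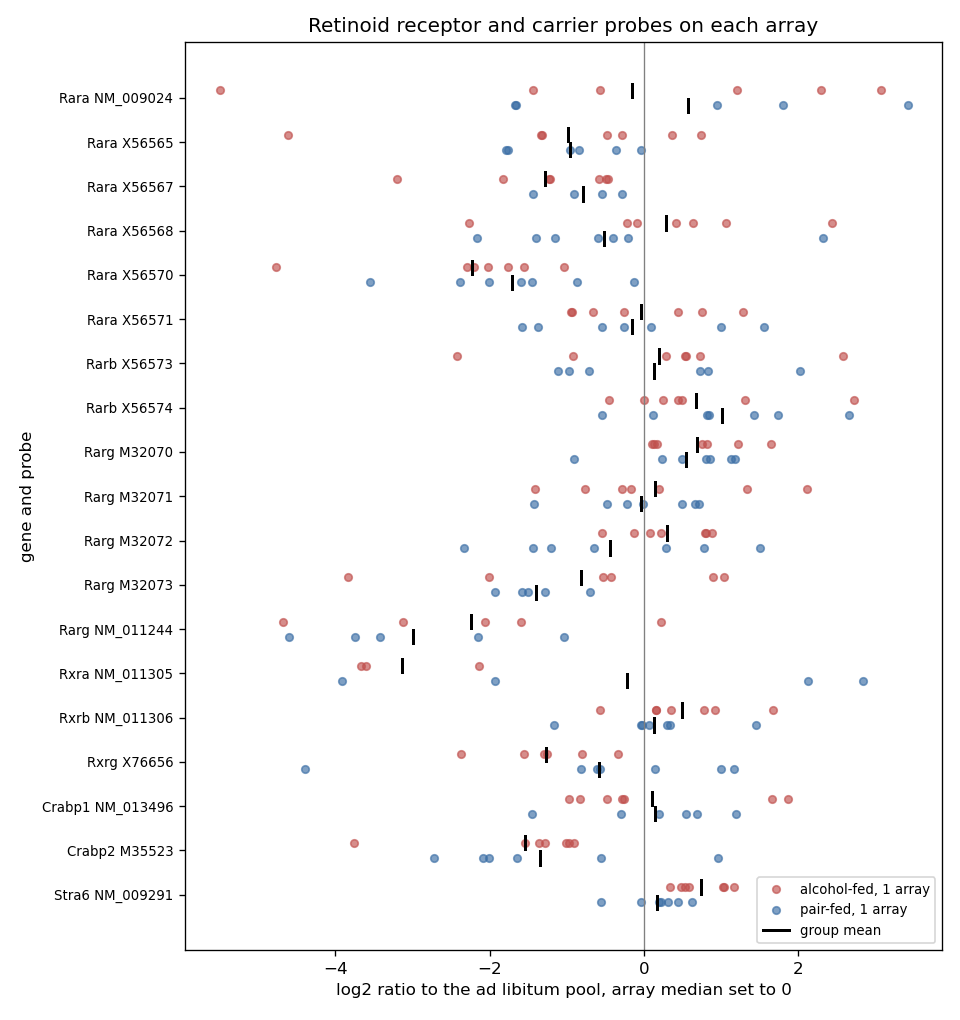
Log2 ratio to the ad libitum pool (array median set to 0) of each of the 19 probes on every array with a value; red points are alcohol-fed arrays, blue points pair-fed arrays, and black bars group means. The 7 alcohol-fed Stra6 points lie between 0.33 and 1.17, and all points of both groups lie below 0 for Rara probe X56570.

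The first question was whether ethanol changed these genes relative to the matched sugar diet. No receptor or carrier probe passed the test: limma called 0 of 18 at an adjusted p under 0.05, against 0% of all 20876 probes tested. None of the 18 had an unadjusted limma p under 0.05, where 4.22% of all probes did. The differences (alcohol-fed minus pair-fed) ran from -0.72 for Rara probe NM_009024 to 0.80 for Rara probe X56568, with a median of 0.09, beside 0.01 over all probes. In 10 probes the difference was positive and in 8 negative. The alcohol-fed and pair-fed arrays overlapped in all 18, and they failed to overlap in 0.115% of all probes. The limma interval lay within a 4-fold difference in either direction for 13 of the 18 and within a 2-fold difference for 0. Differences under 2-fold were therefore not resolved for any of these probes.

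Stra6, which takes retinol up, varied least of the 18 probes. On the 7 alcohol-fed arrays its log2 ratio was lowest at 0.33, 0.58 at the median and highest at 1.17. On the 7 pair-fed arrays the corresponding values were -0.55, 0.23 and 0.63. All alcohol-fed arrays were above 0, 5 of 7 pair-fed arrays were, and the groups overlapped between 0.33 and 0.63. The moderated standard deviation of the probe was 0.62, and 0.139% of all probes tested had a lower one. The difference between the groups was 0.57 ± 0.33 (limma SE), with a 95% interval of -0.13 to 1.26, an unadjusted p of 0.103 and a limma adjusted p of 0.9996. An exact permutation test of the group labels, two-sided, gave an unadjusted p of 0.00932 for the same difference. It was the 1 of 18 probes below 0.05 by that test, which put 4.1% of all probes below 0.05, so that this count is near the background. The standard deviations of the arrays themselves were 0.33 and 0.38, smaller than the moderated value, which limma draws toward the spread of all probes. The next smallest permutation p among the 18 was that of Rarg probe M32072, 0.212.

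**Figure D2:**
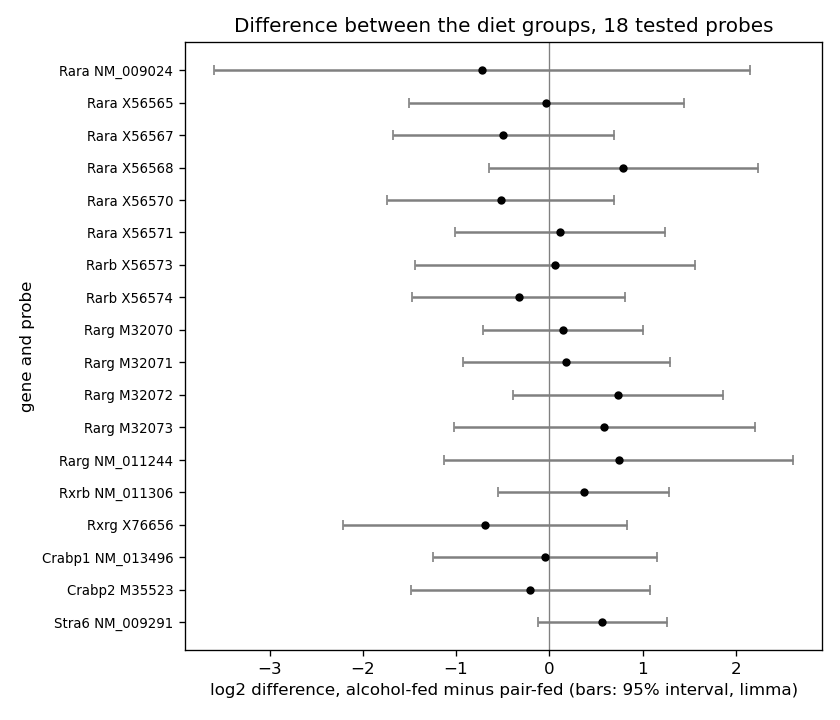
Log2 difference between the alcohol-fed and pair-fed groups for the 18 tested probes; points are limma estimates and bars their 95% intervals. Every interval includes 0, from the narrowest, Stra6 (-0.13 to 1.26), to the widest, Rara NM_009024 (-3.60 to 2.16).

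Each group was then set against the pool of freely fed animals. The pool is a single control sample, and the test leaves out its own spread. All samples were in the same dye, so a dye effect and a difference from the pool cannot be told apart. Both comparisons share this pool, and their values are given side by side. In the alcohol-fed group limma called 5 of 18 probes (27.8%), 1 higher and 4 lower. Over all probes it called 23.5%, 8.02% higher and 15.5% lower. In the pair-fed group it called 3 of 18 (16.7%), 0 higher and 3 lower, against 21.3% of all probes, 7.86% higher and 13.5% lower. At an unadjusted p under 0.05 it had 7 and 5 of the 18, against 38.5% and 36.1% of all probes. These shares lie near the background. Without alcohol-fed array 4 the alcohol-fed count was 3, and without pair-fed array 1, 2 or 4 the pair-fed count was 2. The median log2 ratio over the 18 was 0.03 in the alcohol-fed and -0.30 in the pair-fed group, beside 0.01 and -0.03 over all probes.

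Stra6 was the probe called higher. In the alcohol-fed group it stood 0.74 ± 0.23 above the pool (limma SE, adjusted p 0.0293). In the pair-fed group it stood at 0.17 ± 0.23 (limma adjusted p 0.623). The test of the difference between the groups is the one given above, which limma did not call. The alcohol-fed call ended without alcohol-fed array 1, 3, 4 or 5, with a replicate block and without the 3 arrays of highest deposited median (limma adjusted p 0.0502 to 0.0856).

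The carriers of retinoic acid, with 1 probe each, gave unlike mean ratios, which were not tested against each other. Crabp2, which brings retinoic acid to its receptors, was below the pool on 7 of 7 alcohol-fed arrays, lowest at -3.76 on array 4, -1.28 at the median and highest at -0.91. On the 6 pair-fed arrays with a value it ran from -2.72 through a median of -1.83 to 0.96, and 5 of 6 were below 0. Array 6 was the pair-fed array above 0. Its mean ratio was -1.55 ± 0.41 in the alcohol-fed group (2.92-fold lower, limma adjusted p 0.0137) and -1.34 ± 0.45 in the pair-fed group (limma adjusted p 0.0411). The difference between the groups was -0.20 ± 0.61. The pair-fed call ended without pair-fed array 1, 2, 3 or 4, without the 3 arrays of highest deposited median, with values as deposited and with quantile normalization (limma adjusted p 0.0522 to 0.120). Crabp1, which binds retinoic acid in cells of the neural crest and hindbrain, was at 0.10 ± 0.39 in the alcohol-fed and 0.15 ± 0.42 in the pair-fed group and passed in neither. Its alcohol-fed arrays 2 and 3 stood at 1.86 and 1.66, and the other 5 lay between -0.98 and -0.26.

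Rara, the most widely expressed of the retinoic acid receptors, was called lower with 2 of its 6 probes. With X56570 it lay below the pool on every array. The alcohol-fed arrays ran from -4.78 (array 6) through a median of -2.02 to -1.03, and the pair-fed arrays from -3.55 (array 6) through -1.60 to -0.13 (array 7). The mean was -2.23 ± 0.41 in the alcohol-fed group (4.71-fold lower, limma adjusted p 0.000947) and -1.71 ± 0.41 in the pair-fed group (3.28-fold lower, limma adjusted p 0.00738). Both calls held under all 23 alternatives tried. With X56567 the values were -3.20, -1.22 and -0.46 (lowest, median and highest) on 7 alcohol-fed arrays, all below 0. Its 4 pair-fed values were all below 0 too, from -1.44 to -0.29. It was called lower in the alcohol-fed group (-1.29 ± 0.34, limma adjusted p 0.0138) and not called in the pair-fed group (-0.80 ± 0.44, limma adjusted p 0.212).

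The other 4 Rara probes passed in neither group. X56565 stood at -0.99 ± 0.48 and -0.96 ± 0.51 in the alcohol-fed and pair-fed groups, below 0 on 5 of 7 and 6 of 6 arrays. X56571 stood at -0.04 ± 0.38 and -0.16 ± 0.38, with 3 of 7 arrays above 0 in each group. X56568 ran from -2.27 to 2.43 on alcohol-fed arrays and from -2.17 to 2.32 on pair-fed arrays, so that each group spread over more than 4 log2 units. NM_009024 spread most, from -5.50 (alcohol-fed array 4) to 3.42 (pair-fed array 5), and 99.5% of all probes tested had a lower moderated standard deviation.

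The probes of 1 gene were compared on the same arrays by an exact permutation test over all sign changes of their per-array differences, both groups together, two-sided, with Benjamini-Hochberg adjustment over the 26 probe pairs of Rara, Rarb and Rarg. For Rara 2 of 15 pairs differed. X56568 exceeded X56570 on 13 of 14 arrays, by a mean of 1.86 ± 1.33 (SD), and X56571 exceeded X56570 on 12 of 14 arrays, with a mean difference (X56570 minus X56571) of -1.87 ± 1.53 (both exact adjusted p 0.00635). X56570 and X56567, the probes called lower, differed by 0.68 ± 1.31 on 11 arrays, which did not pass (exact adjusted p 0.160). Within 1 group no pair passed, but this cannot show whether the probes differ there. An exact p cannot fall below 0.0156 on 7 arrays or below 0.0625 on 5 arrays, before the adjustment over all pairs. The lowest adjusted p was 0.203 in the alcohol-fed and 0.167 in the pair-fed group.

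Rarg, the receptor of skin, cartilage and limb, was called with 1 of its 5 probes. With NM_011244 it was far below the pool: the alcohol-fed arrays with a value stood at -4.68, -3.12, -2.07, -1.59 and 0.22, and the pair-fed arrays at -4.60, -3.74, -3.42, -2.16 and -1.03. Alcohol-fed array 7 was the 1 of 10 above 0. Its mean was -2.25 ± 0.62 in the alcohol-fed group (limma adjusted p 0.0189) and -2.99 ± 0.62 in the pair-fed group (7.95-fold lower, limma adjusted p 0.00423). The alcohol-fed call ended without alcohol-fed array 2 or 4, without the 3 arrays of highest deposited median and with placeholders kept as values (limma adjusted p 0.0599 to 0.0914). M32073 had a mean of -0.81 ± 0.51 in the alcohol-fed and -1.40 ± 0.56 in the pair-fed group. It was below 0 on 4 of 6 and 5 of 5 arrays and passed in neither (limma adjusted p 0.254 and 0.0855). It was called in the pair-fed group without alcohol-fed array 1 (0.0307).

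M32070 lay on the other side. It was above the pool on 7 of 7 alcohol-fed arrays, from 0.11 through a median of 0.75 to 1.64, and on 6 of 7 pair-fed arrays, where array 3 stood at -0.91 and the highest at 1.19. Its mean ratios of 0.69 ± 0.29 and 0.54 ± 0.29 did not pass (limma adjusted p 0.0901 and 0.188). With quantile normalization the alcohol-fed value passed (limma adjusted p 0.0467). M32071 stood at 0.15 ± 0.37 and -0.04 ± 0.37, and M32072 at 0.30 ± 0.38 and -0.44 ± 0.38, in the alcohol-fed and pair-fed groups. Of 10 Rarg probe pairs 5 differed by the exact test. M32070 exceeded NM_011244 on 10 of 10 arrays by a mean of 3.09 ± 1.89 (SD, exact adjusted p 0.0127) and M32073 on 10 of 11 arrays by 1.70 ± 1.23 (exact adjusted p 0.0127). M32071 exceeded NM_011244 by 2.69 ± 1.90, and M32072 exceeded it too, each on 9 of 10 arrays (both exact adjusted p 0.0254). M32071 also exceeded M32073, by 0.98 ± 1.01 (exact adjusted p 0.0435). Leaving out 1 array changed the total of 7 differing pairs to between 4 and 9, with 4 pairs left without alcohol-fed array 2 or pair-fed array 1, 2, 4 or 5.

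**Figure D3:**
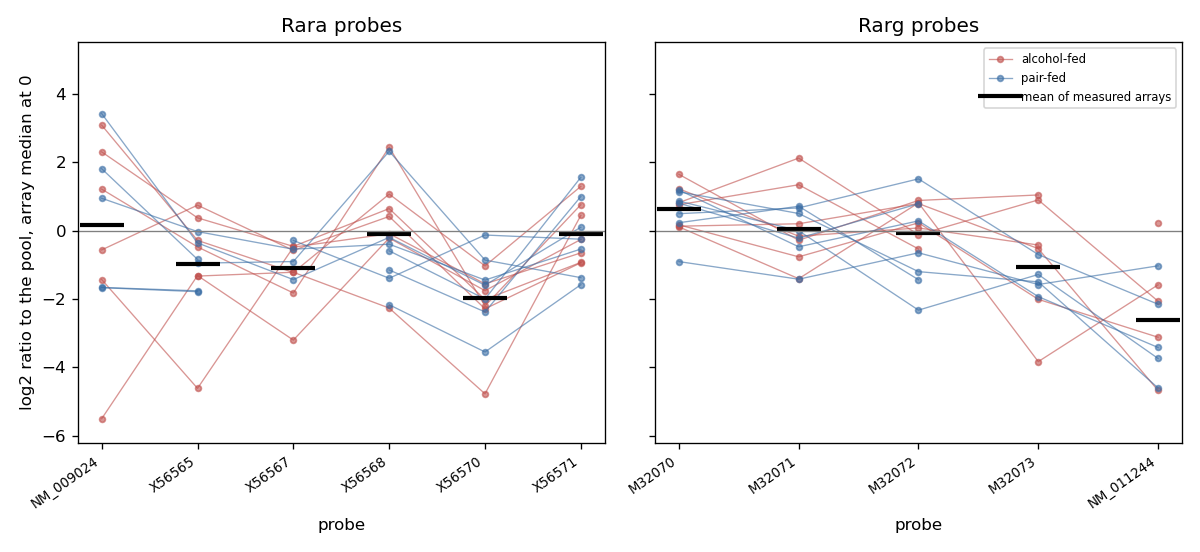
Log2 ratio to the pool (array median at 0) of the 6 Rara and the 5 Rarg probes; each line joins neighbouring probes on 1 array (red alcohol-fed, blue pair-fed; a line breaks where a value is missing), and black bars are means over all measured arrays. X56570 lies below 0 on every array while X56568 and X56571 scatter around it, and the Rarg probes fall from M32070 to NM_011244.

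Such spread was common on this platform among genes with many probes. The alcohol-fed means of the 6 Rara probes covered a range of 2.52 log2 units and those of the 5 Rarg probes 2.94. Among the 24 genes with at least 5 tested probes, these included, the median range was 3.01 and the extremes 1.12 and 8.38. A range smaller than that of Rara was found in 7 of the 24 genes, and a range smaller than that of Rarg in 11. Among the 996 genes with 2 or more tested probes the median range was 0.92, but a range widens with the number of probes. The range of the 2 Rarb probes was 0.49, and 271 of 866 genes with 2 tested probes had a smaller one. Where on each transcript a probe lies is not in the files used here, so no probe could be assigned to an isoform.

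Rarb, whose start region carries the DR5 shown above, was called in neither group with either probe. X56574 ran from -0.45 through 0.44 to 2.72 on the alcohol-fed arrays and from -0.54 through 0.84 to 2.66 on the pair-fed arrays, above 0 on 6 of 7 arrays of each group. Its means of 0.68 ± 0.38 and 1.01 ± 0.38 had limma adjusted p of 0.199 and 0.0690. The pair-fed value passed with values as deposited, with quantile normalization, without alcohol-fed array 6 and without pair-fed array 3 (limma adjusted p 0.0323 to 0.0462). X56573 ran from -2.43 to 2.58 and from -1.12 to 2.02, with means of 0.19 ± 0.48 and 0.13 ± 0.52. The probes differed by -0.61 ± 1.73 (SD) on 13 arrays (X56573 minus X56574), which the exact test did not call (adjusted p 0.290). Between the diet groups the differences were -0.33 ± 0.54 and 0.06 ± 0.71 (limma SE).

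The retinoid X receptors, the obligate partners of the RARs, were not called in either group. Rxrb stood at 0.50 ± 0.31 in the alcohol-fed group, with 6 of 7 arrays above 0 and a highest value of 1.68, and at 0.13 ± 0.31 in the pair-fed group, from -1.17 to 1.45. Rxrg, the RXR of muscle and parts of the brain, was below the pool on all 6 alcohol-fed arrays with a value, from -2.37 through -1.28 to -0.34. On pair-fed arrays it ran from -4.40 (array 4) through -0.56 to 1.17, with 3 of 7 above 0. Its means were -1.27 ± 0.53 and -0.58 ± 0.49 (limma adjusted p 0.0891 and 0.411). The alcohol-fed value was called without pair-fed array 4 (limma adjusted p 0.0159) and with array weights (0.0414). The test uses 1 spread for both groups.

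Rxra, the main RXR of liver, heart and skin, was measured on 7 of 14 arrays and not tested. Its alcohol-fed values were -3.67, -3.60 and -2.14, all below 0, and its pair-fed values -3.91, -1.93, 2.13 and 2.83, which lay on both sides. The other 7 arrays held an exact 0. With the requirement lowered to 2 arrays per group the alcohol-fed mean was -3.14 ± 1.10 (limma adjusted p 0.0648) and the pair-fed mean -0.22 ± 0.96 (0.893).

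Of the 19 probes 9 were measured on every array, and for these the most alike probe of another named gene was found by Pearson correlation among 11460 probes. Points on 1 array share its hybridisation and centring, and the maximum of so many values is high in any case, so these are descriptions over 14 arrays. Rxrb was most like Per1, a clock gene (r = 0.912, Spearman rho 0.881). Rara X56570 was most like Atp6v0b, a subunit of the vacuolar proton pump (r = 0.912, rho 0.829), and 37 probes had an r over 0.8 with it. Stra6 was least like any other: its best match was the tropomyosin gene Tpm1 (r = 0.795, rho 0.700), and 0 probes were over 0.8.

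The genes around these receptors were counted from 4 lists. In all, 80 genes had a tested probe. Between the diet groups limma called 0 of 80, and 2 of 81 probes had an unadjusted p under 0.05. Those were the retinoic acid targets Egr1, an immediate early transcription factor (-2.21 ± 0.80), and Tgm2, tissue transglutaminase (1.17 ± 0.48), both with a limma adjusted p of 0.9996 and chosen for naming after their values were seen. Against the pool 6 rose and 15 fell in the alcohol-fed group, 25.9% of probes, and 6 rose and 12 fell in the pair-fed group, 22.2% of probes. The shares over all probes were 23.5% and 21.3%. Lower calls made up 15.5% and 13.5% of all probes, and higher calls 8.02% and 7.86%. The median log2 ratio of the 81 probes was 0.02 and -0.26 in the alcohol-fed and pair-fed groups.

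Among genes that carry, store, oxidise or degrade retinol and retinoic acid, 2 of 24 rose and 4 fell in the alcohol-fed group, and 2 rose and 6 fell in the pair-fed group. The called probes were 25.0% and 33.3% of this list, beside 23.5% and 21.3% of all probes. Rbp4, the plasma retinol carrier that STRA6 binds, was below the pool on every array, at -2.40 ± 0.38 in the alcohol-fed and -2.62 ± 0.38 in the pair-fed group (limma adjusted p 0.000223 and 9.79e-05). Dhrs4, a retinal reductase, was below it on every array as well (-3.14 ± 0.36 and -3.12 ± 0.36). Adh4, an alcohol dehydrogenase active on retinol, fell in both groups (-2.69 ± 0.66 on 4 arrays and -2.08 ± 0.54 on 6), and its alcohol-fed call ended with placeholders kept as values (-1.52, limma adjusted p 0.0667). The retinol dehydrogenase Rdh12 rose in the alcohol-fed group (0.84 ± 0.28) and stood at 0.72 ± 0.28 in the pair-fed group (limma adjusted p 0.0692). Rdh5, of the same family, rose in the pair-fed group (1.11 ± 0.27) and stood at 0.57 ± 0.29 in the alcohol-fed group (limma adjusted p 0.153). The retinol-binding protein gene Rbp7 fell in the pair-fed group (-2.75 ± 0.52) and stood at -1.82 ± 0.64 in the alcohol-fed group (limma adjusted p 0.0518). None of these 3 genes was called between the diet groups. Aldh1a2, the main retinoic acid synthase of the embryo, named after its values were seen, stood at 1.00 ± 0.33 and 0.99 ± 0.33 (limma adjusted p 0.0364 and 0.0400). The retinoic acid hydroxylase Cyp26a1, likewise named, was not called (-1.04 ± 0.60 and -0.94 ± 0.65). Among the genes named here, Rdh12 lost its call without alcohol-fed array 1, 3, 4, 5 or 6. Aldh1a2 lost its call without alcohol-fed array 1, 4, 6 or 7, or pair-fed array 2, 4, 5 or 7. Adh4 had only the 4 alcohol-fed arrays that the test requires, so it was not tested when 1 of those was left out. Rdh11 was also called lower in the alcohol-fed group (-2.06 ± 0.70, limma adjusted p 0.0445) but was not named by the rule. The alcohol-fed count of 6 called probes fell to 2 without array 4 and to 3 without array 1, 3 or 7.

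Of 14 other nuclear receptors, most of them RXR partners, 1 rose and 3 fell in the alcohol-fed group and 1 rose and 2 fell in the pair-fed group. That made 28.6% and 21.4% of their probes, beside 23.5% and 21.3% of all probes. Ppara, the receptor of fatty acid oxidation, was below the pool on every array (-2.20 ± 0.40 and -2.58 ± 0.40). Nr1h3, the oxysterol receptor LXR alpha, stood at -2.35 ± 0.74 and -2.41 ± 0.74 and Pparg, the fat cell receptor, at -3.11 ± 0.81 in the alcohol-fed group, where it was called, and -0.70 ± 0.91 in the pair-fed group, where it was not. Pparg had values on 5 alcohol-fed and 4 pair-fed arrays. Its difference between the diet groups was not called (-2.41 ± 1.22, limma adjusted p 0.9996). The xenobiotic receptor Nr1i2 rose in the alcohol-fed group (1.13 ± 0.30) and stood at 0.41 ± 0.30 in the pair-fed group. Nr2f2 (COUP-TFII) rose in the pair-fed group (1.23 ± 0.26) and stood at 0.47 ± 0.26 in the alcohol-fed group. Nr1h3 lost its call without alcohol-fed array 1, 2, 3 or 5 and without pair-fed array 1, 2 or 5, and Pparg without alcohol-fed array 3 or 6. The alcohol-fed count fell from 4 to 2 without array 3.

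Of 17 coregulator genes, 2 rose and 2 fell in the alcohol-fed group and 2 rose and 1 fell in the pair-fed group. By probes the shares were 22.2% and 16.7%, beside 23.5% and 21.3% of all probes. The coactivator Ncoa3 had the largest ratio of any gene named from the 4 lists, 4.93 ± 0.31 in the alcohol-fed and 4.91 ± 0.31 in the pair-fed group, above the pool on 14 of 14 arrays. The coactivator Ncoa6 rose as well (1.18 ± 0.29 and 0.92 ± 0.29), and the mediator subunit gene Med1 fell (-3.18 ± 0.36 and -2.85 ± 0.39). Nrip1, the corepressor RIP140, which the list of targets also holds, fell in the alcohol-fed group (-2.57 ± 0.74) and stood at -0.89 ± 0.83 in the pair-fed group. It had values on 5 alcohol-fed and 4 pair-fed arrays. Without alcohol-fed array 1, 4 or 7 Nrip1 lost its call, and without pair-fed array 1, 4 or 5 Ncoa6 lost its pair-fed call.

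Of 26 known retinoic acid targets outside the receptor and carrier genes, 1 rose and 7 fell in the alcohol-fed group and 1 rose and 3 fell in the pair-fed group. Target probes were called at 30.8% and 15.4%, beside 23.5% and 21.3% of all probes. No target was called between the diet groups. Stra8, the germ cell gene induced by retinoic acid at the entry into meiosis, was below the pool on every array (-3.03 ± 0.36 and -3.17 ± 0.36). So was the homeobox gene Meis1 (-3.46 ± 0.44 and -2.32 ± 0.44), on 6 arrays of each group. Egr1 (-3.15 ± 0.59) and Pck1 of gluconeogenesis (-2.86 ± 0.56) fell in the alcohol-fed group and stood at -0.94 ± 0.54 and -1.36 ± 0.61 in the pair-fed group. Egr1 had values on 5 alcohol-fed and 6 pair-fed arrays, and Pck1 on 6 and 5. Hoxb4 rose in both groups (0.89 ± 0.30 and 1.36 ± 0.30; it was named by the rule from the pair-fed group), and Tgm2 fell in the pair-fed group (-1.02 ± 0.34), a call that ended without pair-fed array 1, 4, 5, 6 or 7, and stood at 0.15 ± 0.34 in the alcohol-fed group. The alcohol-fed count of 8 fell to 4 without array 1 and to 5 without array 4 or 7.

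**Figure D4:**
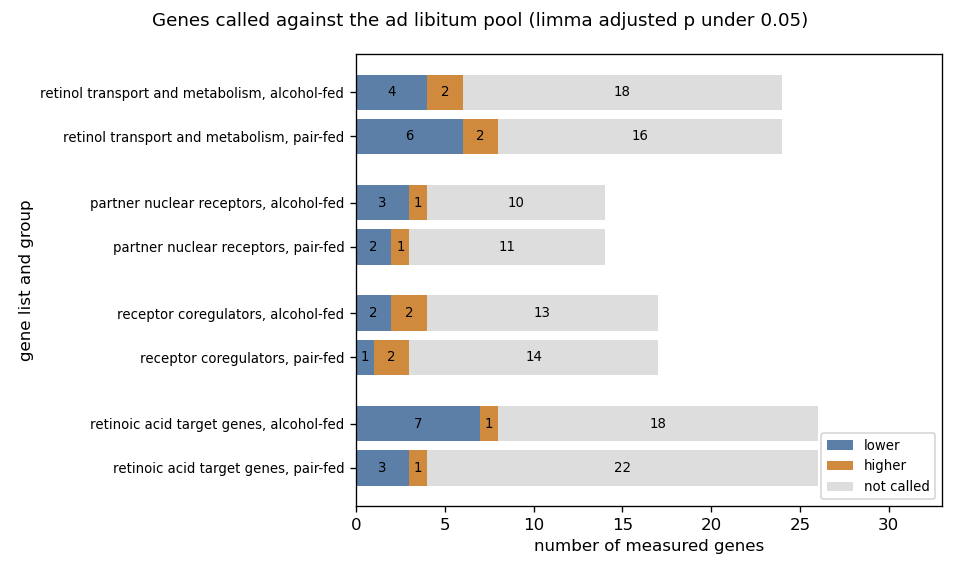
Number of measured genes of each list called lower (blue), higher (orange) or not called (grey) against the ad libitum pool by limma, in the alcohol-fed and the pair-fed group. More genes were called lower than higher in 6 of the 8 bars, all but the coregulators, with 2 and 2 in the alcohol-fed and 1 and 2 in the pair-fed group. Over all probes more were called lower than higher as well, 15.5% against 8.02% (alcohol-fed) and 13.5% against 7.86% (pair-fed).

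Markers of organs that RNA of a fetus could hold were counted in the same fits. Over all probes limma called 15.5% lower and 8.02% higher in the alcohol-fed group, and 13.5% and 7.86% in the pair-fed group. The marker counts were not tested against these shares. Of 4 lung epithelium markers 3 were lower than the pool in both groups (Slc34a2, Nkx2-1 and Sftpc), and the mean over the 4 probes ran from -2.30 to -1.28 on alcohol-fed and from -2.61 to -0.34 on pair-fed arrays. Of 4 erythroid markers 2 were lower in both groups, and of 7 hepatocyte markers 1 and 2 were. Of 5 skeletal muscle markers 3 and 2 were lower, with 1 higher in both groups. Tfrc, an erythroid marker counted as lower, had 2 probes, at -2.99 and 0.12 in the alcohol-fed group. In the pair-fed group they stood at -2.34 and -0.03. The higher muscle marker was Ryr1, with 7 probes. Its probe D21797 stood at 5.91 in the alcohol-fed and 4.6 in the pair-fed group. Its other probes ran from -0.05 to 0.94 and from -0.68 to 0.77. Of 5 keratinocyte markers 1 and 0 were lower, and of 6 neuronal markers 1 was lower in the alcohol-fed group while 1 had probes called both ways in the pair-fed group. Both were Gad2, whose 2 probes stood at -3.32 and 0.13 in the alcohol-fed and at -4.23 and 0.89 in the pair-fed group. The part of tissue composition in the ratios of the retinoid genes was not tested.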

How the data were processed

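The deposited table holds 1 log2 ratio per probe for each of 14 two-colour arrays. The log2 scale was read from the values. How the authors scanned and normalized the arrays is not known here. RNA was reverse-transcribed and labelled with a Genisphere Cy3/Cy5 kit, per the labels' protocols. Exact values of 0 and the highest value in the table (16.61) were set to missing, 2.57% to 14.6% of an array. Array medians without them ran from -0.62 to 0.68 and were set to 0. Limma 3.58.1 in R 4.3.3 fitted both group means over all 14 arrays, two-sided, on 20876 probes (706 left out), with Benjamini-Hochberg adjustment over all of them and a threshold of 0.05. Errors are limma standard errors unless called SD, and the number of arrays limits the precision. Exact permutation tests used Python 3.11.15 and SciPy 1.17.1. The fits and tests were tested on simulated data. No 2 arrays shared more than 0.287% of their measured values, so each was counted as 1 replicate.

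Symbols come from the platform annotation, which is old. All 19 probes kept their symbol by gene number in RefSeq names of GRCm38.p6. The members and lists were chosen with earlier results of these data known. Named from each list were at most 4 called genes per comparison, by smallest p, with the exceptions stated. Alternatives were values as deposited, quantile normalization, placeholders kept, 2 other filters on missing values, a replicate block, array weights, robust eBayes and leaving out arrays.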

Additional observations from a re-analysis of the deposited data

Results flagged for a closer look

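In 37 groups of arrays the lowest and the highest value were compared with the rest, and 4 values stood far from the others in their group by Dixon's 95% criterion, where chance gives about 1 in 20 groups. All 4 were low values. Rara X56565 was at -4.61 on alcohol-fed array 7, with the next array at -1.33. Rara X56570 was at -4.78 on alcohol-fed array 6, next at -2.29, and without that array the group remained below the pool. Rxrg X76656 was at -4.40 on pair-fed array 4, next at -0.82. Crabp2 M35523 was at -3.76 on alcohol-fed array 4, next at -1.54.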

How the results depend on the processing

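Between the diet groups limma called 0 of the receptor and carrier probes under each of the 23 alternatives. The exact permutation test had 1 probe at an unadjusted p under 0.05 with values as deposited and with placeholders kept, and 1 to 2 when 1 array was left out. Against the pool the alcohol-fed count of 5 was 6 with quantile normalization or array weights and 4 with placeholders kept. It was 2 with the 9 probes that had values on all 14 arrays, where the other called probes were not tested. It was 3 without the 3 arrays of highest deposited median (alcohol-fed 2 and 3 and pair-fed 2), an alternative chosen after seeing the data, and 3 to 5 without 1 array, with 3 left without alcohol-fed array 4. The pair-fed count of 3 became 1 with values on all 14 arrays, where the other called probes were likewise not tested, and 2 to 4 without 1 array. The count of 7 differing probe pairs was 9 with placeholders kept and 4 to 9 without 1 array. It was 0 within the alcohol-fed and 0 within the pair-fed arrays, where 7 or fewer arrays limit the exact p too much to decide. Of all probes, limma called 4913 in the test of alcohol-fed against the reference, and 2816 without those 3 arrays. Over all probes the median ratio was 0.01 (alcohol-fed) and -0.03 (pair-fed), 0.14 and 0.09 with values as deposited, and 0.14 and 0.08 with quantile normalization. Of the lists, the alcohol-fed count of called retinoic acid targets fell from 8 to 5 with values as deposited, 4 with values on all 14 arrays and 3 with the block, and that of coregulators from 4 to 2 with values on all 14 arrays. The filter to all 14 arrays left out called probes with missing values, such as those of Meis1, Med1 and Nrip1. The pair-fed count of retinol genes fell from 8 to 4 with values on all 14 arrays and to 5 with the block or without the 3 arrays, which also took the alcohol-fed counts of retinol genes from 6 to 3 and of partner receptors from 4 to 2. Array weights raised those alcohol-fed counts to 9 and 6. Over all alternatives the alcohol-fed counts ran from 2 to 9 (retinol genes), 2 to 6 (partner receptors), 2 to 5 (coregulators) and 3 to 9 (targets), and the pair-fed counts from 4 to 9, 2 to 4, 2 to 4 and 3 to 4.

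Replicate numbers are shared by the groups, but same-numbered arrays deviated together at r = -0.10 to 0.23, and 2 of 7 alcohol-fed arrays correlated best with their own number, so the numbers were not used as pairs. With a replicate block the alcohol-fed count was 3 and the pair-fed count 3, over the 16 probes that could be fitted. Stra6 then lost its alcohol-fed call, and Rara X56565 gained a pair-fed call (limma adjusted p 0.0197). The main limits are the 9.40% of placeholder values, the unknown brightness of the probes and a pool without replicates.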
